A study of Arabidopsis thaliana with 15 samples.

Results

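Expression of 6 root cap genes of Arabidopsis thaliana was followed through callus and shoot induction in hypocotyl explants held at 27 °C or 17 °C. They were the transcription factors FEZ (AT1G26870), SMB (SOMBRERO, AT1G79580), BRN1 (BEARSKIN1, also NAC015, AT1G33280) and BRN2 (BEARSKIN2, AT4G10350), the cellulase CEL5 (AT1G22880) and a root cap polygalacturonase, called RCPG here (AT1G65570). They are 6 of the 33602 genes in the count table. They were chosen by their measured levels in callus, higher at 17 °C than at 27 °C, so those levels are given as a description, with no test. Standard errors and intervals that involve the callus levels of these genes do not allow for this choice.

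The root cap is the tissue that covers the growing root tip, and its outer cells are renewed from stem cells, mature, and are then shed or die. In the root, FEZ promotes the divisions that renew the cap, SMB limits those divisions and drives maturation, and BRN1 and BRN2 act with SMB in late maturation. CEL5 and the polygalacturonase degrade cell wall polymers where cap cells detach, and the polygalacturonase gene is reported as a target of BRN1 in roots. Callus formed on auxin-rich medium is known to take up part of the gene programme of a lateral root primordium.

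Messenger RNA was sequenced in 15 libraries, 3 for each of 5 groups, each from about 100 pooled Col-0 hypocotyl explants. All came from 7-day-old seedlings raised in darkness at 22 °C, and the pieces were cut clear of both the root junction and the shoot junction. The 0 h group was not cultured. The CIM groups spent 4 days on callus-inducing medium with 0.5 mg/L 2,4-D (a synthetic auxin) and 0.1 mg/L kinetin (a cytokinin), at 27 °C or at 17 °C. The SIM groups had the same 4 days on CIM and a further 4 days on shoot-inducing medium with 0.5 mg/L 2-iP (a cytokinin) and 0.15 mg/L IAA (an auxin), at 27 °C or at 17 °C. Culture was in continuous light, and each cultured sample has 1 temperature label. The cultured groups differ from 0 h in medium, temperature, light and time at once, and these cannot be told apart.

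Total counts ran from 3427707 to 4446863 per library, and 22303 to 22963 genes had at least 1 count in 14 libraries. Library 2 of CIM at 27 °C stood apart with 24396 such genes; without it 10 of the 10 cell death genes described below were still lower in callus at 27 °C. Levels are CPM, counts scaled to a fixed library total, on library sizes scaled by TMM. Before the TMM scaling, 1 count in the smallest library is 0.292 CPM. Between libraries 1 and 3 of CIM at 27 °C, 0 of 18926 genes with at least 20 counts in the pair differed past sampling noise (exact binomial test, Benjamini-Hochberg adjusted), while the other pairs of libraries of a group differed at 1 to 187 genes. Their mean chi-square per gene was 0.717, close to the 0.701 and 0.717 of the closest SIM pairs, so they need not be 1 library. As a precaution they were counted as 1 sample, so n = 2 for the mean and SD of that group and n = 3 for the others. The fitted fold changes, standard errors and p-values kept all 3 libraries of that group apart. In all pairs of the SIM groups and of CIM at 27 °C this mean lay between 0.701 and 0.878, below the 1 of sampling noise. The labels do not say that libraries came from separate cultures, so the p-values may reflect technical spread alone. In library 3 of CIM at 17 °C the summed level of 11 photosynthesis genes was 228 CPM, against 119 CPM in each of the other libraries of that group. At 0 h, 12 seed maturation genes summed to 1322 and 896 CPM in libraries 1 and 3 and to 8.34 CPM in library 2. In RNA from whole explants, fewer cells of a type and less RNA per cell cannot be told apart.

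The promoters of BRN2 and RCPG are shown because the counts of these genes in callus lay far lower at 27 °C than at 17 °C. Each is the 250 bases before the outermost annotated start in RefSeq (assembly TAIR10.1), 5′ to 3′ on the strand of the gene. Capitals mark CACG on either strand, the core of the sequence that NAC proteins bind, and CGTG is the same word on the opposite strand. The BRN2 promoter lies at chr4:6416962-6417211 on the minus strand and the RCPG promoter at chr1:24375896-24376145 on the minus strand.
BRN2 promoter: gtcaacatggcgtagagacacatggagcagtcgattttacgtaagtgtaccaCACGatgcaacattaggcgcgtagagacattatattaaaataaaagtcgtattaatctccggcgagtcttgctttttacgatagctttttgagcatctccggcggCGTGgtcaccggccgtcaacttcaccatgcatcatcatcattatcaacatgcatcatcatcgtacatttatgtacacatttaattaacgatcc
RCPG promoter: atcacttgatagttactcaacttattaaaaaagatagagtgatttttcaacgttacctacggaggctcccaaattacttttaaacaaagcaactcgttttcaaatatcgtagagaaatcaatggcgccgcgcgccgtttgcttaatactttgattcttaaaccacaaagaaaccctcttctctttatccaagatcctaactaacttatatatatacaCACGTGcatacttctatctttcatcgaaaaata

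The BRN2 promoter held 2 matches to CACG and the RCPG promoter 2 that overlap in the word CACGTG. The FEZ promoter held 1 match, and those of SMB and CEL5 held 0. Of 27205 promoters of the same length, 45.6% held at least 1 match and 19.1% at least 2. A match is a description of the letters and says nothing about binding. Of 4 further motifs searched on both strands, SNBE, an element bound by NAC proteins of the secondary wall, had 3 matches in RCPG, 2 in CEL5, 1 each in BRN2 and FEZ and 0 in SMB, against 42.6% of all promoters with a match. TERE, an element of vessel genes, had 0 matches in these 5 promoters, against 0.4% of all. TGTCTC, known from auxin response elements, had 2 matches in BRN2 and 0 in RCPG, FEZ, SMB and CEL5, against 11.0% of all promoters with a match. CCGAC, known from cold response elements, had 0 matches in these 5 promoters, against 11.9% of all promoters with a match.

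The NAC genes were compared over their coding sequences, where BRN1 and BRN2 were 82.3% identical, and their longest shared run was 24 bases. SMB was 69.9% identical to BRN1 and 69.4% to BRN2, and FEZ was 63.1% identical to SMB.

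Among the transcription factors, SMB and FEZ had the higher levels per kilobase of exon in callus at 27 °C, 2.64 and 1.79 CPM, and BRN1 had the highest in callus at 17 °C, 62.5 CPM per kilobase. FEZ (chromosome 1, 9312856 to 9314983 in the table, TAIR10) had 0, 0 and 0.878 CPM at 0 h, then 3.00, 2.98 and 1.73 CPM after CIM at 27 °C and 7.85, 4.56 and 7.24 CPM after CIM at 17 °C. After SIM it had 0, 0.234 and 0 CPM at 27 °C and 0.709, 0.541 and 0.245 CPM at 17 °C. The FEZ libraries of the CIM groups lay above all those of the other groups. In callus FEZ averaged 2.67 ± 0.435 CPM at 27 °C (SD, n = 2) and 6.55 ± 1.75 CPM at 17 °C (SD, n = 3), a log2 fold change of -1.34 ± 0.34 (SE).

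SMB (chromosome 1, 29940850 to 29943602) was present before culture, with 1.21, 0.894 and 1.76 CPM at 0 h. After CIM it had 4.84, 6.70 and 3.90 CPM at 27 °C, against 15.1, 18.7 and 25.8 CPM at 17 °C. After SIM it had 0, 0.234 and 0.230 CPM at 27 °C, against 4.73, 2.16 and 3.67 CPM at 17 °C. SMB was thus lowest in SIM at 27 °C, below the uncultured explants, and highest in callus at 17 °C. In callus it averaged 5.54 ± 1.65 CPM at 27 °C (SD, n = 2) and 19.9 ± 5.44 CPM at 17 °C (SD, n = 3), a log2 fold change of -1.97 ± 0.22 (SE). The 17 °C mean was 16.9 CPM without library 3, the library with more photosynthesis gene counts.

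BRN1 (chromosome 1, 12072741 to 12073839) had 0 counts in all 3 libraries at 0 h. After CIM it had 1.61, 1.49 and 1.52 CPM at 27 °C, against 72.1, 66.6 and 82.5 CPM at 17 °C. After SIM it had 0.448, 0.234 and 0 CPM at 27 °C, against 14.9, 11.9 and 9.30 CPM at 17 °C. On either medium the 27 °C libraries held at most 1.61 CPM and the 17 °C libraries at least 9.30 CPM. The callus means were 1.53 ± 0.0532 CPM at 27 °C (SD, n = 2) and 73.7 ± 8.11 CPM at 17 °C (SD, n = 3), so that BRN1 was 47.9-fold lower at 27 °C. Without library 3 the 17 °C mean was 69.3 CPM.

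BRN2 (chromosome 4, 6415256 to 6416829) followed the same order at a much lower level, and was the member that did not pass the filter on low counts. It had 0 counts at 0 h, 0, 1 and 0 counts after CIM at 27 °C and 5, 7 and 17 counts after CIM at 17 °C. After SIM it had 0 counts in each library at 27 °C and 2, 1 and 1 counts at 17 °C. Scaled to depth, its single count in callus at 27 °C against 29 at 17 °C is 32.0-fold lower, with a 95% counting interval from 5.31- to 1309-fold. That single count stood in library 2 at 27 °C, the library with more genes detected. Library 3 at 17 °C held 17 of the 29 counts, and without it the 17 °C mean was 1.57 CPM instead of 2.41 CPM. Intervals of this kind cover counting error only, and ratios against a floor cover that of the group at 0 alone.

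Of the wall enzymes, RCPG had the largest ratio between temperatures and CEL5 the smallest of the 6 genes. RCPG (chromosome 1, 24374098 to 24375846) had 0 counts in all 3 libraries at 0 h. After CIM it had 0.691, 0.248 and 0.867 CPM at 27 °C, against 116, 109 and 131 CPM at 17 °C. After SIM it had 0.896, 1.41 and 1.15 CPM at 27 °C, against 6.62, 5.68 and 5.14 CPM at 17 °C. In callus 8 counts stood at 27 °C against 1394 at 17 °C, a level 193-fold lower (95% counting interval 97.5- to 447-fold) with a log2 fold change of -7.52 ± 0.17 (SE).

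CEL5 (chromosome 1, 8095502 to 8097709) was the member with a clear level in every group. It had 53.9, 48.0 and 46.5 CPM at 0 h, 61.5, 61.8 and 62.4 CPM after CIM at 27 °C and 116, 118 and 125 CPM after CIM at 17 °C. After SIM it had 51.5, 52.0 and 48.8 CPM at 27 °C, against 65.2, 59.8 and 65.1 CPM at 17 °C. Callus at 17 °C stood clear above the other groups. The callus means were 61.9 ± 0.102 CPM at 27 °C (SD, n = 2) and 119.6 ± 4.98 CPM at 17 °C (SD, n = 3), a log2 fold change of -0.95 ± 0.05 (SE). Its closest relative, CEL3, with a coding sequence 81.7% identical and no shared run over 23 bases, averaged 199 ± 5.02 CPM at 27 °C (SD, n = 2) and 201 ± 11.8 CPM at 17 °C (SD, n = 3). The CEL3 log2 fold change in callus was -0.02 ± 0.05 (SE, edgeR quasi-likelihood test, Benjamini-Hochberg adjusted p = 0.824).

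**Figure D1:**
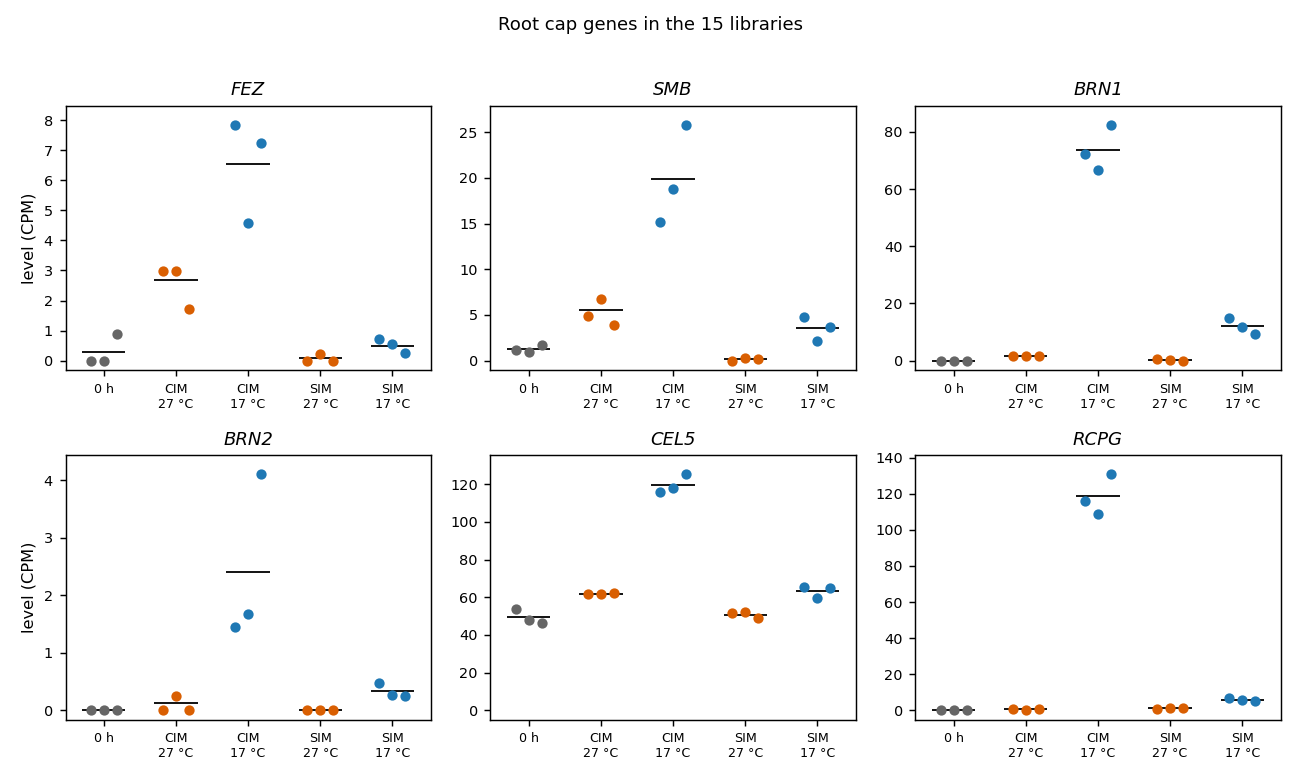
Level of each of the 6 root cap genes (CPM, linear axes that include 0) in the 15 libraries, by group; points are libraries and bars are group means. RCPG and BRN1 reach 131 and 82.5 CPM in callus at 17 °C and stay at or below 1.61 CPM at 27 °C on both media, while CEL5 is above 46 CPM in every library.

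In all 6 genes the callus libraries at 27 °C lay below those at 17 °C. That is what the genes were picked for, and 25.7% of the 20704 genes tested were separated in that direction and 21% were called lower at 27 °C. The summed level of the 6 genes was 70.4 to 73.5 CPM in callus at 27 °C, against 318 to 376 CPM at 17 °C. Levels per kilobase of exon compare genes only roughly, since counts cover the deposited gene intervals and exon lengths are those of RefSeq. For BRN1 the exon length, 1180 bases, exceeds the counted interval of 1099 bases. In callus at 17 °C RCPG had 80.8, BRN1 62.5, CEL5 55.0, SMB 9.48, FEZ 4.40 and BRN2 1.76 CPM per kilobase.

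The order of the 5 groups differed among the genes. SMB and FEZ were highest in callus at 17 °C, then in callus at 27 °C, then in SIM at 17 °C, at 0 h and in SIM at 27 °C. For SMB the libraries of callus at 27 °C and SIM at 17 °C overlapped, and for FEZ those of SIM at 17 °C, 0 h and SIM at 27 °C overlapped with their neighbours in the order. BRN1 and RCPG were higher in SIM at 17 °C than in callus at 27 °C, with no overlap. For RCPG callus at 27 °C came below SIM at 27 °C, and 0 h was lowest. BRN1 libraries of SIM at 27 °C overlapped those at 0 h, and BRN2 libraries of SIM at 17 °C overlapped those of callus at 27 °C. CEL5 libraries overlapped between SIM at 17 °C and callus at 27 °C and again between SIM at 27 °C and 0 h. Across the 15 libraries the log2 levels of BRN1 and RCPG had a Pearson r of 0.945, SMB and FEZ 0.906, and FEZ and RCPG, the least alike pair, 0.683. These correlations describe libraries that share 5 group means.

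The 27 °C and 17 °C explants after SIM were not used to pick the genes, and they show whether the difference was still seen 4 days after transfer. BRN1, SMB, RCPG and CEL5 were lower at 27 °C after SIM, and the difference was smallest in CEL5. Thus 4 of the 6 genes were called lower and 0 higher, against 22.9% of all genes called lower. FEZ did not pass and BRN2 was not tested. SMB and FEZ passed the filter on low counts through other groups than the SIM libraries, and with the SIM libraries alone 3 of the 6 genes were called lower.

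BRN1 averaged 0.227 ± 0.224 CPM after SIM at 27 °C and 12.0 ± 2.79 CPM at 17 °C (SD, n = 3 each). Its 3 counts at 27 °C against 145 at 17 °C were 52.6-fold lower, with a 95% counting interval from 17.6- to 258-fold (edgeR adjusted p = 7.09e-12). SMB averaged 0.155 ± 0.134 CPM at 27 °C and 3.52 ± 1.29 CPM at 17 °C (SD, n = 3 each). Its 2 counts against 43 were 23.4-fold lower, with an interval from 6.09- to 199-fold (edgeR adjusted p = 3.08e-06). With the SIM libraries alone SMB did not pass the filter and was not called. In both genes each library at 27 °C lay below each library at 17 °C, as in 29.4% of all genes.

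RCPG averaged 1.15 ± 0.255 CPM after SIM at 27 °C and 5.81 ± 0.747 CPM at 17 °C (SD, n = 3 each), a log2 fold change of -2.31 ± 0.34 (SE, edgeR adjusted p = 1.44e-06). CEL5 averaged 50.8 ± 1.71 CPM at 27 °C and 63.4 ± 3.09 CPM at 17 °C (SD, n = 3 each), a log2 fold change of -0.32 ± 0.06 (SE, edgeR adjusted p = 1.31e-04). Neither gene's groups overlapped, and 29.4% of all genes were separated in that direction. FEZ had 1 count at 27 °C and 6 at 17 °C, 6.53-fold lower with an interval from 0.792- to 300.3-fold (edgeR adjusted p = 0.125). BRN2 had 0 counts at 27 °C and 4 at 17 °C, at least 1.45-fold lower with 3 counts over the group as the floor. At these counts a FEZ or BRN2 difference was not detectable.

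**Figure D2:**
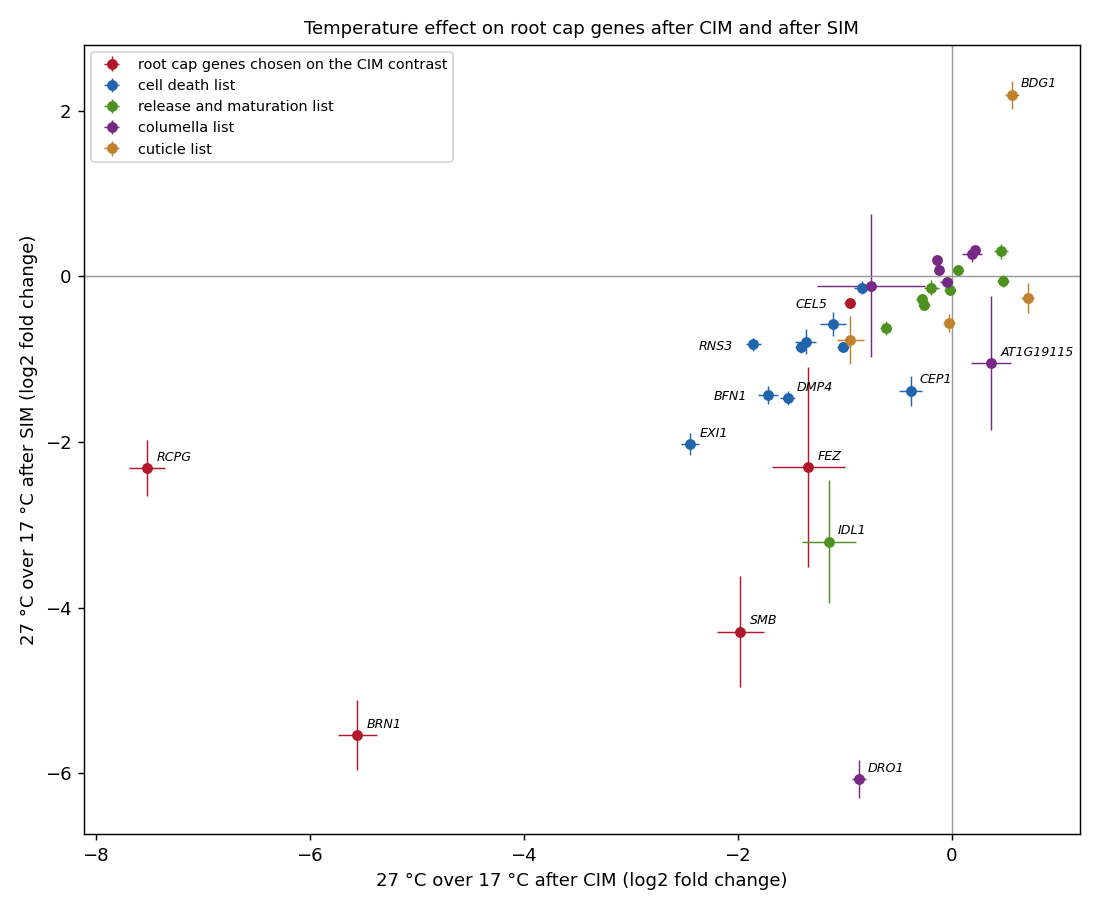
Log2 fold change of 27 °C over 17 °C after SIM (vertical axis) against the same after CIM (horizontal axis), for 5 of the 6 root cap genes and for the genes of 4 further root cap lists; bars are standard errors. RCPG lies at -7.52 after CIM and -2.31 after SIM, BRN1 at -5.55 and -5.54, and DRO1 at -0.87 and -6.07.

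At 17 °C all 6 genes were lower after SIM than after CIM, again as a description by direction alone. Of all genes 23.4% were called lower there by test, a stricter count, and the median log2 fold change over all genes was 0. At 17 °C RCPG was 20.4-fold, FEZ 13.0-fold, BRN2 7.42-fold, BRN1 6.12-fold, SMB 5.64-fold and CEL5 1.89-fold lower after SIM than after CIM. For BRN2, with 4 counts against 29, the 95% counting interval ran from 2.60- to 29.0-fold. At 27 °C, SMB was 33.2-fold lower after SIM than after CIM (interval 8.84 to 280.2), and FEZ, with 1 count against 33, also 33.2-fold lower (interval 5.56 to 1352). BRN1 was 6.71-fold lower (interval 1.99 to 35.3) and CEL5 1.22-fold lower, and BRN2 had 0 counts against 1. RCPG at 27 °C had a ratio of 1.86 after SIM over CIM, with an interval from 0.741 to 5.07. RCPG thus had the largest ratio of the 6 genes between the media at 17 °C, and at 27 °C its interval included 1.

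Set against the uncultured explants, 4 members were higher after SIM at 17 °C, against 38.8% of all genes called higher. BRN1, with 145 counts against 0, was 40.5-fold higher against the floor (edgeR adjusted p = 1.71e-12). RCPG, with 70 counts against 0, was 19.6-fold higher against the floor (edgeR adjusted p = 5.14e-10). SMB had a log2 fold change of 1.45 ± 0.46 (SE, edgeR adjusted p = 0.00555) and CEL5 of 0.36 ± 0.07 (SE, edgeR adjusted p = 2.25e-05). With the compared libraries alone SMB and FEZ did not pass the filter, and 3 members were called higher. FEZ had 6 counts after SIM against 3 at 0 h (edgeR adjusted p = 0.543). All 3 of its 0 h counts stood in library 3, and without that library the edgeR adjusted p in the fit of all groups was 0.0440. BRN2 had 4 counts against 0.

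After SIM at 27 °C, RCPG was higher and SMB lower than at 0 h, 1 member in each direction, against 38.5% of all genes called higher and 39.9% called lower. Both passed the filter on low counts through other groups, and with the compared libraries alone neither passed it, so that 0 members were called higher and 0 lower. RCPG had 15 counts against 0 and was 3.85-fold higher against the floor (edgeR adjusted p = 2.99e-04). SMB had 2 counts against 13 and was 8.43-fold lower, with an interval from 1.91- to 77.0-fold (edgeR adjusted p = 0.00456). With 0 h library 2, the library with few seed maturation counts, as the only 0 h library, and with its spread taken from the other groups, the SMB adjusted p was 0.139. CEL5 had a log2 fold change of 0.04 ± 0.07 (SE, edgeR adjusted p = 0.679). BRN1 had 3 counts against 0 (edgeR adjusted p = 0.104) and FEZ 1 against 3 (edgeR adjusted p = 0.288). With the compared libraries alone BRN1 and FEZ did not pass the filter either. BRN2 had 0 counts in both groups.

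In callus at 17 °C, set against 0 h as a description by direction alone, all 6 genes were higher. Of all genes 37.7% were called higher there by test, a stricter count. The median log2 fold change over all genes was -0.0091. Against the floor RCPG was 399-fold, BRN1 248-fold and BRN2 8.29-fold higher, and against 0 h SMB was 15.6-fold and CEL5 2.43-fold higher. FEZ was 21.7-fold higher (95% counting interval 7.16 to 108). At 27 °C, where 39.5% of all genes were called higher, the same comparison gave FEZ 8.54-fold (interval 2.68 to 43.5), SMB 3.94-fold and CEL5 1.25-fold. Against the floor BRN1 was 5.18-fold and RCPG 2.07-fold higher, and BRN2 had 1 count against 0. CEL5 had the smallest ratio to 0 h at either temperature.

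Root cap cells in the root end in programmed cell death, for which SMB is required, and 10 genes known from that process were read beside the members. All 10 fell at 27 °C in callus, against 21% of all genes, with a median log2 fold change of -1.39 against 0.02 over all genes. EXI1, a marker gene of developmental cell death, averaged 17.9 ± 2.09 CPM at 27 °C (SD, n = 2) and 94.7 ± 5.16 CPM at 17 °C (SD, n = 3), a log2 fold change of -2.44 ± 0.09 (SE, edgeR adjusted p = 2.76e-21). RNS3, a ribonuclease, averaged 28.9 ± 2.74 CPM at 27 °C (SD, n = 2) and 102 ± 6.72 CPM at 17 °C (SD, n = 3), a log2 fold change of -1.85 ± 0.07 (SE, edgeR adjusted p = 2.15e-20). MC9, a metacaspase, averaged 63.1 ± 2.82 CPM at 27 °C (SD, n = 2) and 166 ± 9.16 CPM at 17 °C (SD, n = 3), with an edgeR adjusted p of 5.98e-20. DMP4, a membrane protein gene and another marker of the process, averaged 30.5 ± 1.46 CPM at 27 °C (SD, n = 2) and 87.0 ± 4.37 CPM at 17 °C (SD, n = 3), with an edgeR adjusted p of 4.71e-18. In these 4 genes no library at 27 °C reached the lowest library at 17 °C, as in 25.7% of all genes.

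After SIM, 9 of the 10 fell at 27 °C and 0 rose, against 22.9% and 20.7% of all genes, with a median log2 fold change of -0.86 against -0.0047 over all genes. DMP4 averaged 21.8 ± 0.624 CPM at 27 °C and 60.5 ± 6.66 CPM at 17 °C (SD, n = 3 each), a log2 fold change of -1.47 ± 0.08 (SE, edgeR adjusted p = 7.35e-16). EXI1 averaged 8.03 ± 0.811 CPM at 27 °C and 32.7 ± 3.80 CPM at 17 °C (SD, n = 3 each), a log2 fold change of -2.02 ± 0.13 (SE, edgeR adjusted p = 3.69e-14). The nuclease gene BFN1 averaged 15.5 ± 2.06 CPM at 27 °C and 42.0 ± 4.89 CPM at 17 °C (SD, n = 3 each), with an edgeR adjusted p of 5.74e-12. ANAC087, a transcription factor of the same process, did not pass (log2 fold change -0.14, edgeR adjusted p = 0.201).

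Against 0 h, 9 of the 10 cell death genes were higher and 1 lower in callus at 17 °C, against 37.7% of all genes higher and 39.5% lower. In callus at 27 °C 2 were higher and 4 lower, against 39.5% and 40.4%. From CIM to SIM at 17 °C all 10 fell, against 23.4% of all genes, and at 27 °C 7 fell and 0 rose, against 24.8% lower. The summed level of the cell death list was highest in callus at 17 °C, with 954 to 1082 CPM. It was 427 to 461 CPM in callus at 27 °C, 303 to 338 CPM after SIM at 27 °C and 533 to 622 CPM after SIM at 17 °C. At 0 h the sum was 449 to 495 CPM, which overlapped callus at 27 °C and lay above SIM at 27 °C. The list gene that was lower in callus at 17 °C than at 0 h was the transcription factor ANAC046, with 36.1 ± 5.08 CPM in callus at 17 °C and 51.9 ± 6.01 CPM at 0 h (SD, n = 3 each, edgeR adjusted p = 1.57e-05).

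**Figure D3:**
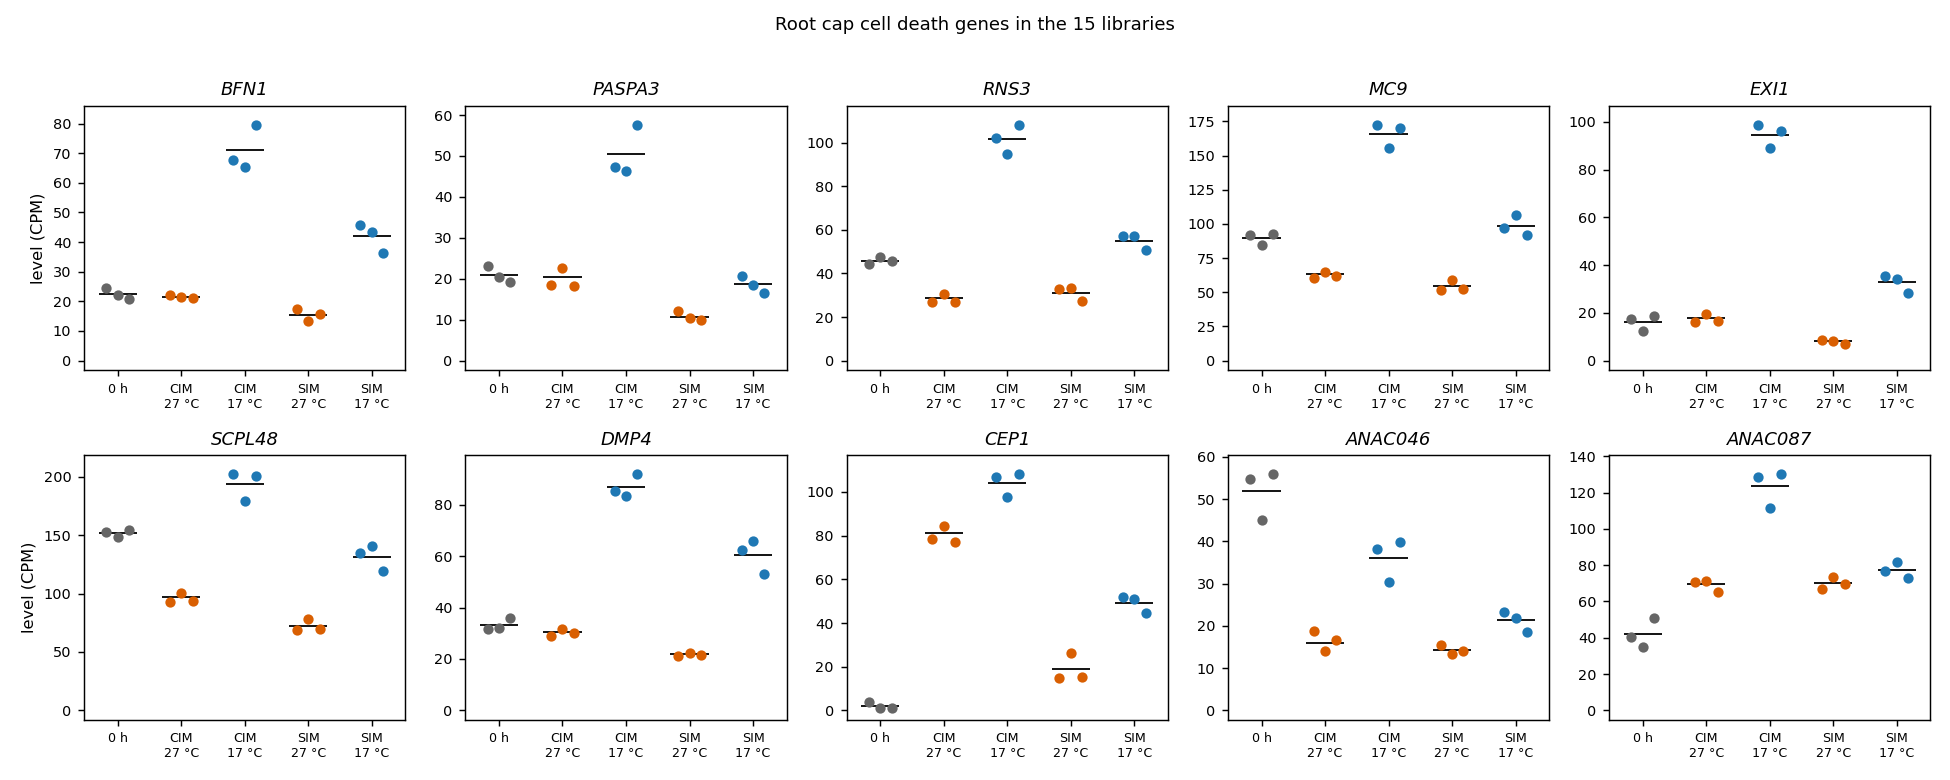
Level of 10 root cap cell death genes (CPM, linear axes that include 0) in the 15 libraries, by group; points are libraries and bars are group means. Each gene has its CIM libraries at 27 °C below those at 17 °C, as do 25.7% of all genes. After CIM, EXI1 averages 17.9 CPM at 27 °C and 94.7 CPM at 17 °C.

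Several of these cell death genes are also active in differentiating xylem vessels, so markers of other cell types were read as well. All 9 xylem genes fell at 27 °C on both media, against 21% of all genes in callus and 22.9% after SIM; they include XCP1, a vessel protease, and VND7, a regulator of vessel fate. Their summed level was 392 to 404 CPM in callus at 27 °C, against 544 to 579 CPM at 17 °C, and 562 to 578 CPM after SIM at 27 °C, against 708 to 741 CPM at 17 °C. It was highest at 0 h, with 1158 to 1228 CPM. At 0 h BRN1, BRN2 and RCPG had 0 counts, while FEZ averaged 0.293, SMB 1.29 and CEL5 49.5 CPM. Of 7 endodermis and suberin genes, 6 fell at 27 °C in callus, against 21% of all genes, and 7 after SIM, against 22.9%. Their sums were 6.72 to 9.68 CPM at 27 °C against 155 to 219 CPM at 17 °C in callus, and 40.5 to 48.4 CPM against 190 to 210.2 CPM after SIM. No xylem gene was at 0 counts in any group, while the suberin regulator MYB39 was at 0 counts in all 3 callus libraries at 27 °C. The part of xylem and endodermis cells in the levels of the cell death genes and of the root cap genes was not tested.

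**Figure D4:**
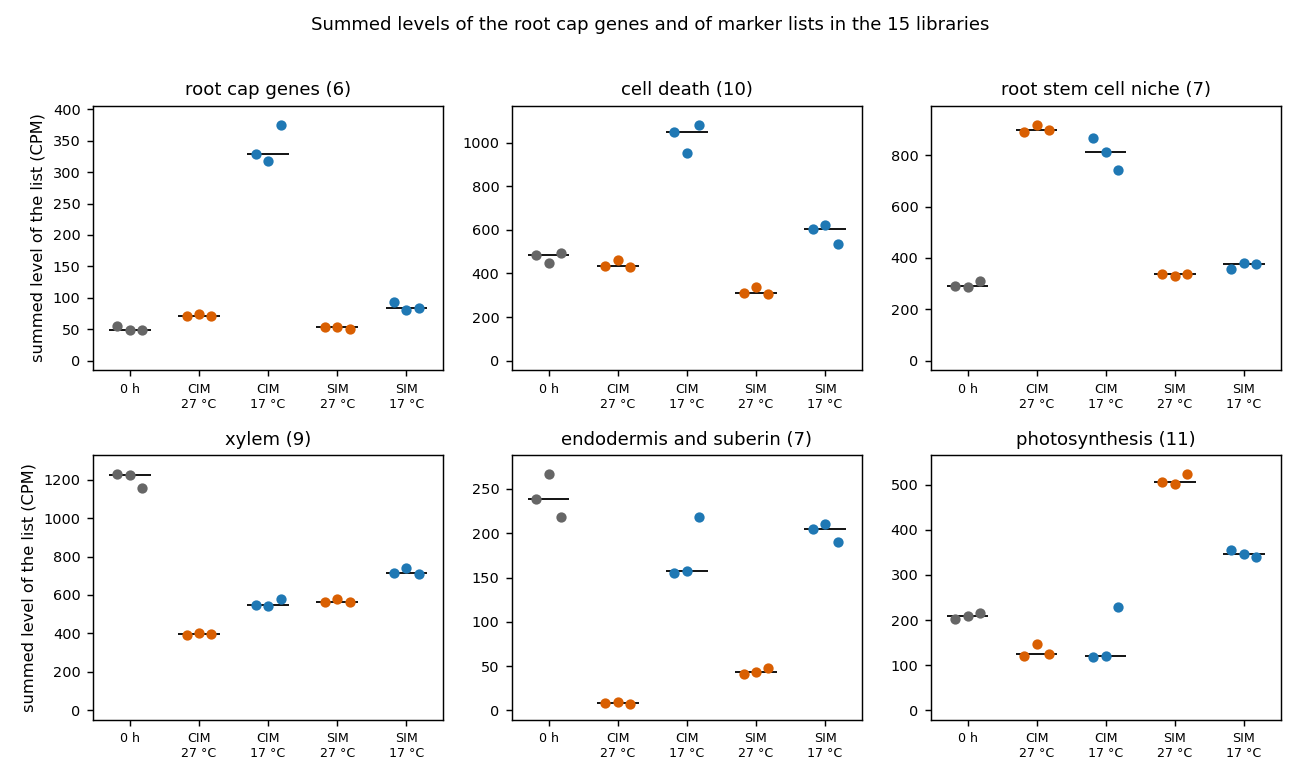
Summed level (CPM, linear axes that include 0) of the 6 root cap genes and of 5 marker lists in the 15 libraries; points are libraries and bars are group medians, with the number of genes in parentheses. The root cap, cell death, xylem and suberin sums are lower at 27 °C than at 17 °C on both media, and the root stem cell niche sum in callus is higher at 27 °C, at 891 to 919 CPM against 741 to 865 CPM.

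Genes that act in release and maturation of cap cells but are no members were called in both directions. Of the 10 listed 9 were tested, since CLE40 had too few counts. In callus 2 rose and 5 fell at 27 °C, against 21.6% and 21% of all genes, with a median log2 fold change of -0.19 against 0.02. ARF16, an auxin response factor of distal cap stem cells, had a log2 fold change of -0.62 ± 0.05 (SE, edgeR adjusted p = 1.03e-11), and NLP7, which restrains cap cell release, of -0.28 ± 0.05 (SE, edgeR adjusted p = 1.38e-05). HSL2, the receptor kinase of the release pathway, rose by 0.48 ± 0.05 (log2, SE, edgeR adjusted p = 7.21e-09), and ACR4, a receptor kinase that limits cap stem cell divisions, by 0.46 ± 0.07 (log2, SE, edgeR adjusted p = 8.82e-07). After SIM 1 rose and 5 fell, against 20.7% and 22.9% of all genes, with a median of -0.17. Those that fell were ARF16 (log2 fold change -0.62), QUA2 (-0.35), NLP7 (-0.27), CEL3 and IDL1. The last, the peptide ligand gene of the release pathway, had 2 counts at 27 °C and 20 at 17 °C (edgeR adjusted p = 6.54e-04). IDL1 passed the filter on low counts through other groups, and with the SIM libraries alone it did not pass and 4 of the list were called lower.

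Columella genes, of the central cap cells that sense gravity, did not move together. In callus 1 of 8 rose and 3 fell at 27 °C, near the 21.6% and 21% of all genes, with a median log2 fold change of -0.08. After SIM 3 rose and 1 fell, against 20.7% and 22.9% of all genes, with a median of 0.0017. The gene that fell after SIM was DRO1, a LAZY-family gene that sets root angle, with 0.382 ± 0.132 CPM at 27 °C and 27.8 ± 0.851 CPM at 17 °C (SD, n = 3 each), a log2 fold change of -6.07 ± 0.23 (SE, edgeR adjusted p = 1.93e-20). Of 4 cuticle genes, 2 rose and 1 fell in callus, against 21.6% and 21% of all genes, with a median of 0.27. After SIM 1 rose and 2 fell, against 20.7% and 22.9%, with a median of -0.41. BDG1, needed for the cuticle, averaged 25.6 ± 3.48 CPM after SIM at 27 °C and 5.56 ± 0.501 CPM at 17 °C (SD, n = 3 each), a log2 fold change of 2.19 ± 0.17 (SE, edgeR adjusted p = 1.78e-11).

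The genes whose pattern over the 15 libraries was most like that of the members were found by Pearson r of log2 CPM with the mean standardized profile of the 5 members that passed the filter, among 20047 genes. The closest was AT1G72790, annotated as a hydroxyproline-rich glycoprotein, with an r of 0.986, a mean of 62.0 CPM in callus at 27 °C and 135 CPM at 17 °C. Then came AT1G23520, a DUF220 gene (0.980), AT1G44080, an F-box gene (0.980), AT3G26590, a MATE efflux gene (0.979), and the channel gene CNGC10 (0.979). The other five were the VQ motif gene AT5G08480 (0.976), the ceramidase gene AT2G38010 (0.976), PP2-A8 (0.975), the subtilase gene SBT3.5 (0.974) and GDH3 (0.972). AT1G44080 had 0 counts at 0 h and after SIM at 27 °C, like BRN2.

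**Figure D5:**
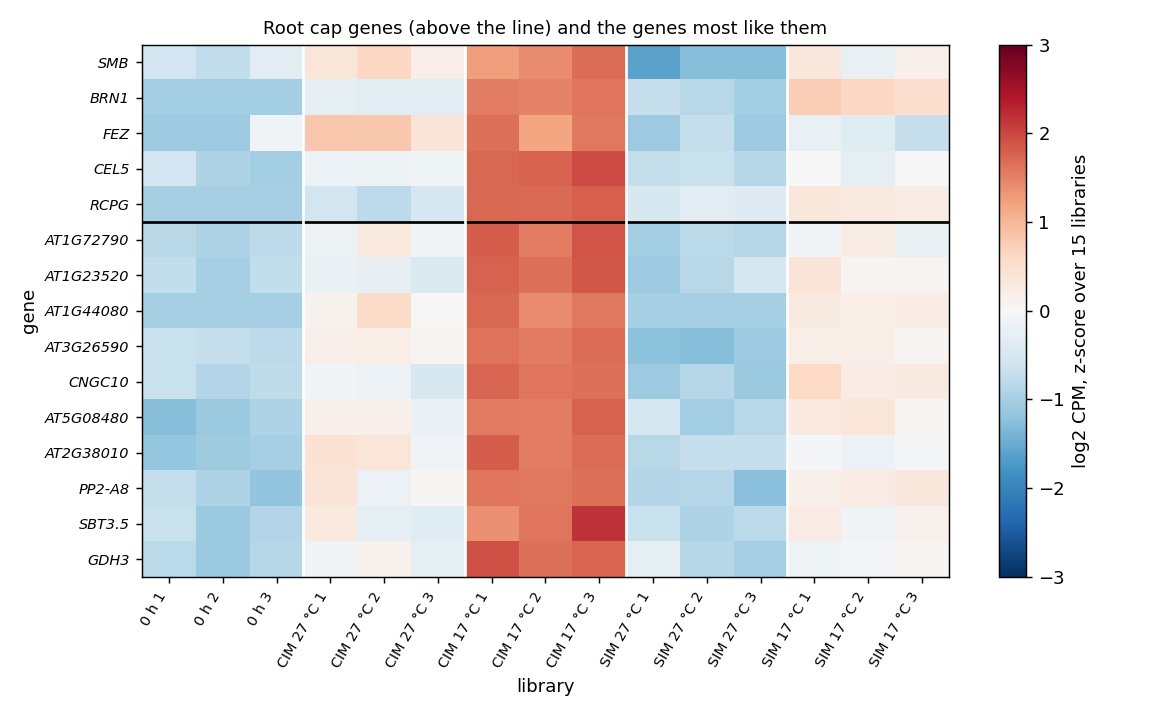
Standardized log2 CPM (z score over the 15 libraries, colour scale from -3 to 3) of the 5 root cap genes that passed the filter, above the line, and of the 10 genes most like them, below it; columns are libraries in group order. Every gene is darkest red in the 3 libraries of callus at 17 °C.

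Of the listed genes, EXI1 ranked 52 in likeness (r = 0.942), IDL1 155 (r = 0.902) and BFN1 162 (r = 0.900), whereas CEL3 ranked 2800. Other genes of the same lists lay further away. ANAC046 of the cell death list ranked 7259 (r = 0.207) and QUA1 of the release list 19687 (r = -0.838). These are descriptions of libraries that share 5 group means, not tests.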

How the data were processed

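Total counts per gene were taken from a table of raw, unnormalized counts of reads, as the authors deposited them, with 33602 genes and 15 libraries; 0 columns were left out. The submitters' processing notes name FastQC 0.11.7, Bowtie2 2.3.4.3, SAMtools 1.9, bedtools 2.26.0 and the build TAIR10. The role of each tool, the use of strand and the handling of duplicates are not given in the sources used here. Libraries were made with a kit that keeps strand, per the labels. Bowtie2 does not align across introns, so reads over exon junctions may be missing. The 279 organelle genes are at 0 counts.

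Counts were filtered with filterByExpr, which left 20704 genes, and scaled by TMM (factors 0.907 to 1.04). All 15 libraries and 5 groups went into 1 robust quasi-likelihood fit in edgeR 4.0.16 (R 4.3.3), with p-values adjusted by Benjamini and Hochberg over all genes tested and a threshold of 0.05. SE is the log2 fold change divided by the root of the F value. Ratios of summed counts carry exact 95% counting intervals, and the floor for a group at 0 was 3 counts over the group. A ratio against the floor takes the other count as exact. The scripts were tested on simulated counts. Total counts per library limit the precision of low genes, as 1 count is 0.292 CPM in the smallest library before the TMM scaling.

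The 6 genes, the lists and the tests were chosen with earlier results of these data known. The 6 genes are named in each comparison; of each list, values are given for up to 4 called genes with the smallest p per comparison, except where a list gene is given for contrast. The 10 genes of like pattern needed a mean of at least 2 CPM and passed the filter. Library numbers do not pair the samples. Alternatives were DESeq2 1.42.0 size factors and Wald test, no filter, a replicate block, the compared libraries alone, each library left out, CIM libraries 1 and 3 at 27 °C merged, and counts corrected as if each start position had been counted once. The use of 0 h library 2 alone was chosen after seeing the data.

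Gene coordinates are those of the table. Of its genes 32835 matched RefSeq's TAIR10.1 annotation and 100% of these overlapped the gene there. Promoters of 5 of the genes were read from that assembly; the other is not reported here. Coding sequences were aligned with Biopython 1.88.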

Additional observations from a re-analysis of the deposited data

Results flagged for a closer look

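The temperature effect (log2, 27 °C over 17 °C) was compared between media for 31 genes of the 4 further root cap lists, and it differed for 13 of them, beside 18.5% of all genes (edgeR quasi-likelihood interaction, Benjamini-Hochberg adjusted over all genes). The 6 root cap genes were not tested, since callus values picked them. Values below are the effect after SIM minus the effect after CIM. DRO1, the root angle gene, had the largest, -5.20, and was lower at 27 °C on both media. In the cell death list the drop at 27 °C was smaller after SIM for RNS3 (1.03), ANAC087 (0.70), PASPA3 (0.58), MC9 (0.55) and ANAC046 (0.54), and larger for the protease gene CEP1 (-0.998). In the cuticle list the difference was 1.63 for BDG1, -0.97 for DCR and -0.54 for GPAT4. The receptor kinase gene HSL2 had -0.54, and the auxin carriers PIN7 and PIN3 had 0.33 and 0.19. Groups of 3 libraries were too small to test for a library far from the others.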

How the results depend on the processing

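Of the 1397 values recomputed under an alternative, 1355 kept their direction and side of the threshold or, for counts, stayed within 1.5 times. After SIM, 4 of the 6 genes were called lower at 27 °C under every alternative run but the compared libraries alone, which gave 3, as SMB did not pass that filter. With the compared libraries alone, SMB and RCPG did not pass the filter against 0 h, so the members called after SIM at 27 °C were 0 higher and 0 lower; with 0 h library 2 alone 0 were lower. With a library left out, the release list had 0 to 1 higher and the cuticle list 1 to 2 lower at 27 °C after SIM, and the columella list 0 to 2 higher and 1 to 3 lower in callus. In 19 of the values a gene lost its call without a change of sign. In callus CEP1 of the cell death list lost it without 17 °C library 3 (edgeR adjusted p = 0.0550). ARF10 in callus and PGM1 after SIM each lost it under 4 alternatives, the DESeq2 Wald test among them. Log2 fold changes that turned sign had not passed the test. After SIM, HSL2 ran from -0.15 to 1e-04 over the libraries left out (the positive sign without 27 °C library 3), and AT1G17400 (LAZY2) from -0.48 to 0.24, above 0 without 17 °C library 3 (0.24) and 27 °C libraries 1 (0.06) and 2 (0.03). FEZ after SIM at 27 °C over 0 h ran from -3.39 to 1.80, above 0 without 0 h library 3, and was 1.81 with 0 h library 2 alone. In callus, CEL3 ran from -0.058 to 0.028 and GPAT4 from -0.10 to 0.049, both above 0 without 17 °C library 1, and CEL3 was 0.0053 with corrected counts. The causes were not tested. Same-numbered libraries had deviations that correlated from -0.243 to 0.096, so they share a number only; under the replicate block 4729 genes in place of 4742 were lower at 27 °C after SIM, and the 6 genes kept their counts of calls.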

Other observations

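Root stem cell niche genes, which act next to the cap in the root tip, did not follow the cap genes in their temperature difference in callus. Against 0 h all 7 were higher in callus at 17 °C and at 27 °C, against 37.7% and 39.5% of all genes. From CIM to SIM all 7 fell at 17 °C and at 27 °C, against 23.4% and 24.8% of all genes. Of 7, 4 rose and 0 fell at 27 °C after CIM, against 21.6% and 21% of all genes; the 6 cap genes were picked for being lower there. PLT1, a regulator of the niche, averaged 106 ± 0.933 CPM at 27 °C (SD, n = 2) and 88.3 ± 6.43 CPM at 17 °C (SD, n = 3), a log2 fold change of 0.26 ± 0.06 (SE, edgeR adjusted p = 4.25e-04). BBM, of the same family, had a log2 fold change of 0.30 ± 0.06 (SE, edgeR adjusted p = 2.47e-04). WOX5, which marks the niche centre, averaged 52.4 ± 1.02 CPM at 27 °C (SD, n = 2) and 46.5 ± 5.49 CPM at 17 °C (SD, n = 3) and did not pass (edgeR adjusted p = 0.0729). After SIM 5 of the 7 fell at 27 °C and 0 rose, against 22.9% and 20.7% of all genes. WOX5 was among those that fell, with 2 counts at 27 °C and 10 at 17 °C (edgeR adjusted p = 0.0283). It passed the filter on low counts through other groups, and with the SIM libraries alone it did not pass. PLT1 then averaged 0.304 ± 0.124 CPM at 27 °C and 6.67 ± 2.00 CPM at 17 °C (SD, n = 3 each), a log2 fold change of -4.33 ± 0.43 (SE, edgeR adjusted p = 8.72e-10).

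Among 5 genes of the root epidermis and its hairs, RHD6, which starts hair formation, rose at 27 °C on both media. It averaged 18.8 ± 1.80 CPM in callus at 27 °C (SD, n = 2) and 2.77 ± 0.667 CPM at 17 °C (SD, n = 3), a log2 fold change of 2.74 ± 0.21 (SE, edgeR adjusted p = 1.52e-12). GL2, which marks non-hair cells, fell in callus at 27 °C by 0.67 on the log2 scale (edgeR adjusted p = 4.19e-04), and the other three did not pass there, so that 1 rose and 1 fell, against 21.6% and 21% of all genes. After SIM 2 rose and 1 fell at 27 °C, against 20.7% and 22.9% of all genes. The 1 that fell was WER, active in non-hair cells and the lateral root cap, with 0.0768 ± 0.133 CPM at 27 °C and 2.78 ± 1.20 CPM at 17 °C (SD, n = 3 each, edgeR adjusted p = 9.76e-06). WER did not pass the filter on low counts with the SIM libraries alone. EXPA7, a hair gene, had 0 counts at 0 h and in callus and 30.6 ± 4.12 CPM after SIM at 27 °C against 20.4 ± 2.89 CPM at 17 °C (SD, n = 3 each). These lists, too, were chosen with earlier results known.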
